A study of Mus musculus with 14 samples.

Results

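The genes described here are 37 genes of the type I interferon response, taken by name from a count table of 54532 mouse genes, and 37 of 37 were found and passed the filter on low counts. They were followed over 14 RNA-seq libraries of sorted cells from the submandibular gland, a large salivary gland. All libraries came from adult TertCreERT2/+Rosa26LSL-tdTomato/+ mice, in which CreERT2, a Cre recombinase that needs tamoxifen to act, is made from the Tert locus and Cre switches on the red reporter tdTomato. Tert+ cells carried tdTomato and Tert- cells did not, and both were gated as DAPI-negative, which leaves out dead cells, and as positive for the epithelial adhesion protein EpCAM. The 4 groups were Tert+ cells of glands given 15 Gy of radiation (Tert+ RT, n = 4), Tert+ cells without radiation (Tert+ no RT, n = 3), Tert- cells of irradiated glands (Tert- RT, n = 4) and Tert- cells without radiation (Tert- no RT, n = 3). The reporter marks cells in which the Tert locus drove Cre and the descendants of those cells, so Tert+ is a label of cell history and not a measure of Tert RNA in the library. The time between irradiation and sorting was not given in the labels used here.

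Type I interferons are secreted proteins that cells make when they sense foreign or misplaced nucleic acid. They bind a receptor made of IFNAR1 and IFNAR2, whose kinases JAK1 and TYK2 start a signal that ends in a complex called ISGF3, with STAT2 and IRF9 among its subunits, which binds the interferon-stimulated response element (ISRE) of target genes. The target genes include antiviral effectors, sensors of nucleic acid and the transcription factors of the pathway itself. Ionising radiation is known to leave DNA in the cytosol, which the cGAS and STING sensing pathway can read.

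Total counts ran between 5520412 and 15943597 per library. Groups followed the sample titles, and the cell type field of the labels named the opposite population in 14 of 14 libraries, so each Tert+ against Tert- direction below rests on the titles. Whether the replicates of a group were separate animals is not stated in the labels, and the p-values then describe library-to-library spread, which may be technical. The libraries after RT carried library numbers 9 to 16 and those without RT numbers 1 to 8, and radiation and library number cannot be told apart. The 7 epithelial markers summed to between 91.7 and 534 CPM (counts scaled to the library size) in the 14 libraries, and the 8 B cell markers to between 8069 and 13282 CPM. B cell markers were above the epithelial markers in every library, although the cells were labelled EpCAM-positive, and the acinar markers, secretory genes of the gland, summed to between 2698 and 28777 CPM. The levels below are those of libraries that held RNA of both kinds. In these bulk samples fewer cells of a type and less RNA per cell cannot be told apart.

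Over both populations, 13 of the 37 genes rose after RT and 0 fell, against 6.36% of the 15915 genes tested that rose and 7% that fell (edgeR quasi-likelihood test, Benjamini-Hochberg adjusted p under 0.05 over all genes tested). The 37 genes and the lists below were chosen with earlier results of these data known. Counts set against all genes tested, here and below, are therefore descriptions and not independent support. The fit took all libraries as independent. If Tert+ and Tert- libraries with the same number came from the same animal, the p-values over both populations may be too small. The 13 were the antiviral effectors Mx1, Mx2, Ifit1 and Isg20, the oligoadenylate synthetase genes Oas2 and Oasl1, the nucleic acid sensor Zbp1, the transcription factors Irf7 and Irf9, the ADP-ribosyltransferase Parp14, and Xaf1, Trim30a and Rtp4. The log2 fold change of RT over no RT was positive for 32 of the 37 genes, with a median of 0.73 where the median of all genes tested was about 0. At an unadjusted p under 0.05, 22 of the 37 were higher and 0 lower, against 13.7% and 15.1% of all genes tested. The 5 genes with a negative value were Cmpk2, Ifi27, Ifi35, Isg15 and Stat2, and the lowest of them was -0.13, for Ifi27. Summed over the 37 genes, the level was 2759, 1935, 2231 and 1674 CPM in Tert+ RT libraries, against 1227, 1666 and 1346 CPM in Tert+ no RT libraries. In Tert- RT libraries the sum was 2226, 2115, 2048 and 1436 CPM, against 1277, 1624 and 1296 CPM in Tert- no RT libraries. Tert+ RT 4 lay just above the highest Tert+ library without RT, and Tert- RT 4 lay inside the range of the Tert- libraries without RT.

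**Figure D1:**
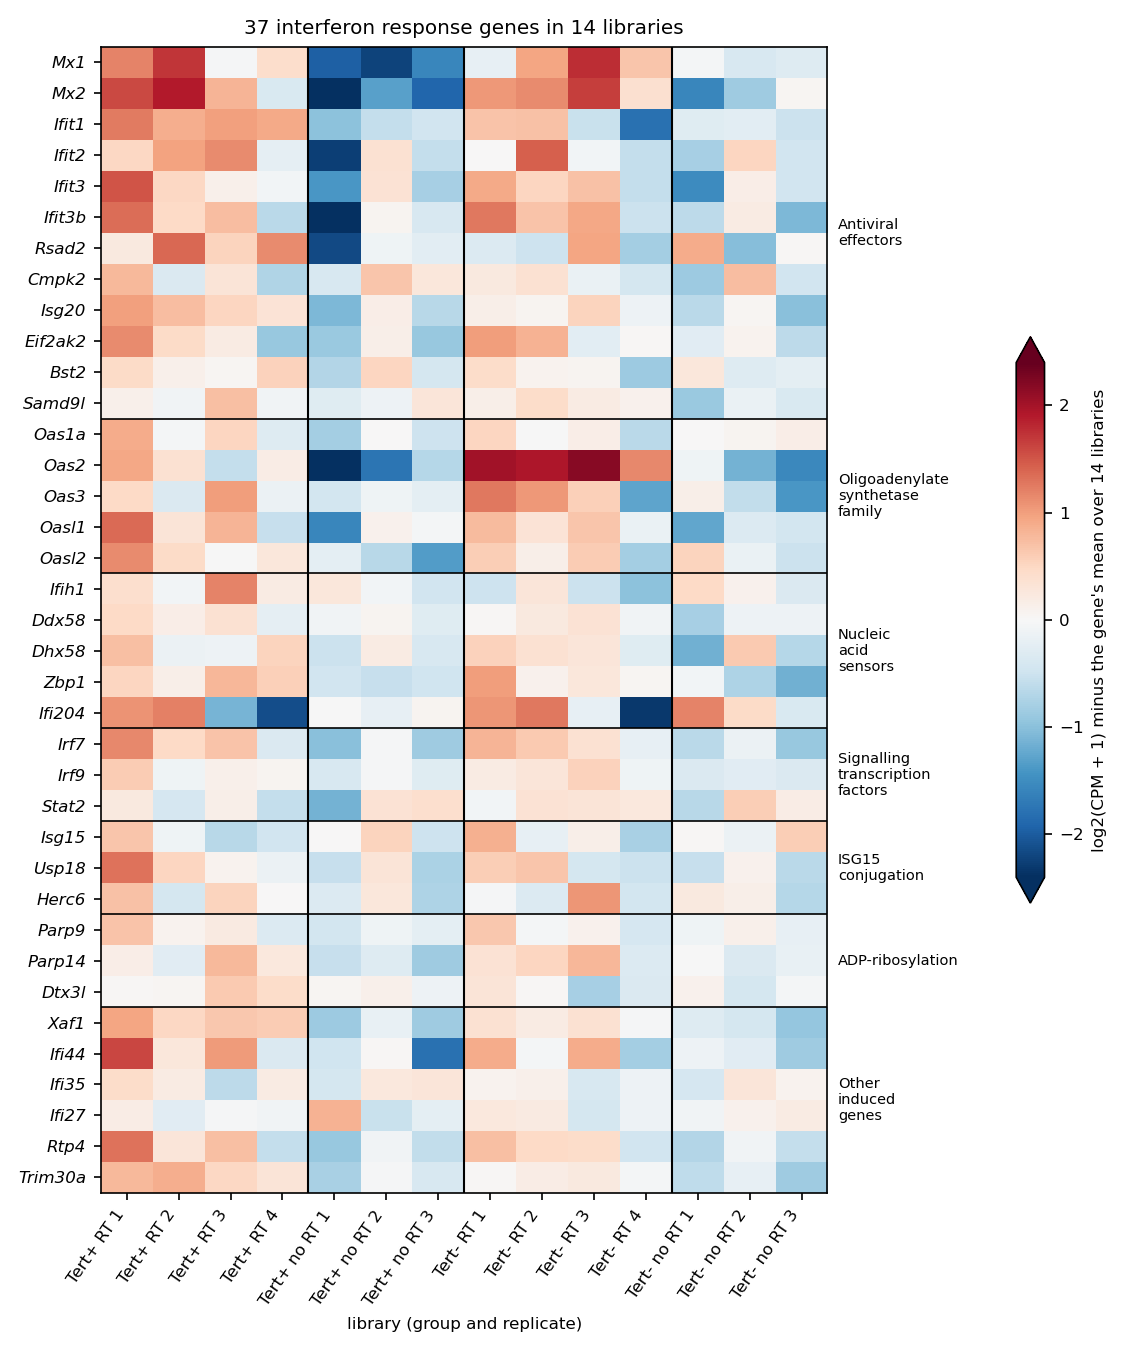
Levels of the 37 interferon response genes (rows, grouped by role) in the 14 libraries (columns), as log2(CPM + 1) minus the gene's mean over the 14 libraries, with red above and blue below that mean. The columns of Tert+ RT 1, 2 and 3 and of Tert- RT 1, 2 and 3 are mostly red, with Tert+ RT 1 the reddest. Those of Tert+ no RT 1, Tert+ no RT 3, Tert- no RT 3 and Tert- RT 4 are mostly blue.

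The call for RT over both populations rested on the library set to different degrees. Of the 13 genes, 7 stayed past the threshold in each of the 14 fits that left out 1 library (Trim30a, Irf7, Xaf1, Zbp1, Oas2, Mx1 and Mx2). The number of genes that rose ran between 7 and 16 over those fits, with 7 both without Tert+ no RT 3 and without Tert- no RT 3. It was 8 without both Tert+ RT 1 and Tert+ no RT 1, a choice made after the data were seen, and it was 18 with DESeq2 and 10 with limma voom, so the side of the threshold on which some genes below lie depends on the tool. Tert+ RT 1 held the highest level of 19 of the 37 genes, or 51.4%, where it held the highest level of 6.42% of all genes tested. Tert+ no RT 1 held the lowest level of 13 of the 37, or 35.1%, against 13.3% of all genes tested.

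The sequence before the start of these genes was read for 26 of the 37, without Mx1, Mx2, Oas2, Zbp1, Dhx58, Ifi204, Usp18, Parp9, Parp14, Ifi27 and Rtp4, in RefSeq promoter entries (GRCm38.p6, the assembly named mm10 by the study), each with 250 bases before the start and 50 bases from the start on. The ISRE was searched as GAAANNGAAA, which reads TTTCNNTTTC on the other strand, and was present in 13 of the 26 genes, against 3.98% of 10619 tested genes with an entry. The gamma-activated site, an element of interferon gamma target genes, was searched as TTCNNNGAA, which reads the same on both strands, and was present in 6 of the 26 (23.1%), against 8.46% of the tested genes. Of the 7 genes with an entry that rose after RT over both populations, 2 held an ISRE match, Ifit1 and Trim30a, and so did 11 of the other 19. A match is a description of letters in a 300-base window, and no match says only that these letters are not in it. The promoters of 4 genes are shown because they differ in both respects: Trim30a and Ifit1 rose and held a match, Isg15 held 3 overlapping matches and did not pass the test, and Xaf1 rose with no match. Capitals mark the ISRE matches, and each sequence runs 5′ to 3′ on the strand of the gene.
Trim30a: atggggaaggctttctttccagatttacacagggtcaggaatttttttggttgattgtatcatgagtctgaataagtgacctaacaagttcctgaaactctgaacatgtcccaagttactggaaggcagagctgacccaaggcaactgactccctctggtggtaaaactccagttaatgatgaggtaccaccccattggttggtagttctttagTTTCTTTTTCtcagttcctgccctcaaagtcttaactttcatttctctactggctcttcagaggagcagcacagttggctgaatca
Ifit1: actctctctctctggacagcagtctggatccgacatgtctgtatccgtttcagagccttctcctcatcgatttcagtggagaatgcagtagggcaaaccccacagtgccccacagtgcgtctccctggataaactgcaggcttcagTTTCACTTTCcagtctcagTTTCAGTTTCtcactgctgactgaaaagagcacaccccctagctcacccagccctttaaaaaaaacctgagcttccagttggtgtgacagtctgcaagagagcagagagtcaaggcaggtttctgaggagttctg
Isg15: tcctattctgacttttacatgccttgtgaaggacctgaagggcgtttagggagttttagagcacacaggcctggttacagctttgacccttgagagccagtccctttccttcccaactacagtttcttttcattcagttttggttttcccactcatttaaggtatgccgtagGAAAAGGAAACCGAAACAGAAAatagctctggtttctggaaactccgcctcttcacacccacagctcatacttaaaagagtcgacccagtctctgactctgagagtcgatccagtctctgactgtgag
Xaf1: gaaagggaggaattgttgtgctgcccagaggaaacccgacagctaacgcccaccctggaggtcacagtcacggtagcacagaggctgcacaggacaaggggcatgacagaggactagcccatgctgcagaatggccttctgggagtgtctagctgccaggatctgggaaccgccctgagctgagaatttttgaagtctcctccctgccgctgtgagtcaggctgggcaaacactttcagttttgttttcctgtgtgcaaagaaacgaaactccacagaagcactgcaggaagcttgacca
The Trim30a window is chr7:104465144-104465443 on the minus strand, the Ifit1 window chr19:34640639-34640938 on the plus strand, the Isg15 window chr4:156200769-156201068 on the minus strand and the Xaf1 window chr11:72301379-72301678 on the plus strand. Counted with the start as 0, the match began at -36 in Trim30a, at -104 and -85 in Ifit1, and at -78, -72 and -66 in Isg15.

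**Figure D2:**
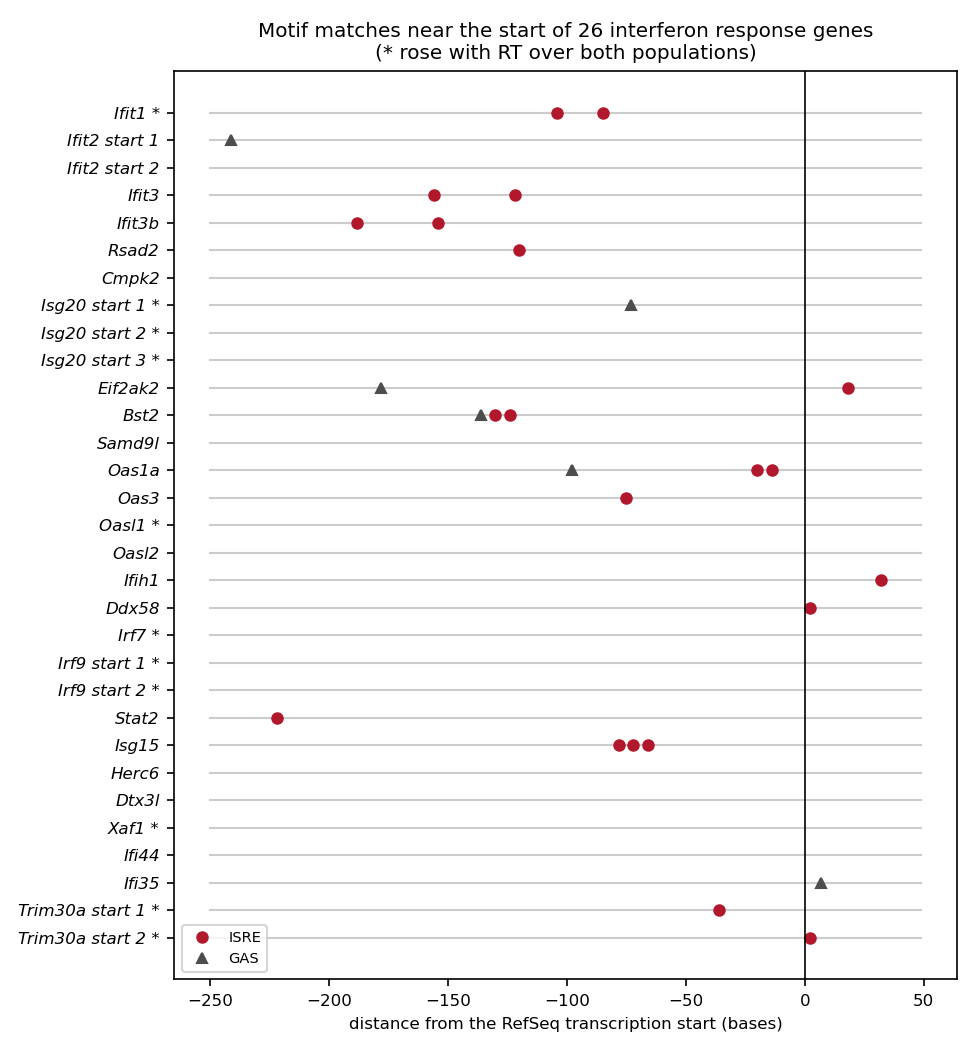
Positions of ISRE matches (circles) and gamma-activated site matches (triangles) in bases from the RefSeq transcription start, for 26 genes with a promoter entry, some with more than 1 start. The circles lie on rows of 13 genes, and Ifit1 and Trim30a are the starred rows with circles.

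Among the antiviral effectors 4 of 12 rose. Mx1 and Mx2 encode dynamin-like GTPases that block virus replication and lie beside each other on chromosome 16 (mm10 97447035 to 97462907 and 97535308 to 97560900), and the count table annotates Mx2 as a polymorphic pseudogene. Mx1 was at 14.3, 21.2, 5.59 and 8.04 CPM in Tert+ RT libraries, against 0.733, 0.443 and 1.29 CPM in Tert+ no RT libraries. In Tert- RT libraries it was at 4.90, 12.1, 22.0 and 9.66 CPM, against 5.52, 4.20 and 4.41 CPM in Tert- no RT libraries. All Tert+ RT libraries lay above the Tert+ libraries without RT, and Tert- RT 1 lay within the Tert- range without RT. Over both populations the log2 fold change of Mx1 was 2.62 ± 0.44 (SE, edgeR adjusted p = 0.00208).

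Mx2 was at 17.2, 21.7, 9.69 and 3.68 CPM in Tert+ RT libraries, against 0, 1.45 and 0.607 CPM in Tert+ no RT libraries. The library at 0 had no count of Mx2, which allows up to 0.325 CPM, counting error only. That limit is 3 counts over the total counts of the library, without the scaling factor applied to the other values. Mx2 in Tert- RT libraries was at 11.4, 12.2, 18.1 and 6.90 CPM, against 1.03, 2.36 and 5.25 CPM in Tert- no RT libraries. The ranges with and without RT did not overlap in either population, and the log2 fold change over both was 3.11 ± 0.62 (SE, edgeR adjusted p = 0.00551).

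Ifit1, which binds foreign RNA that lacks the host cap methylation, was at 35.3, 27.2, 29.2 and 27.6 CPM in Tert+ RT libraries, against 6.72, 9.29 and 10.1 CPM in Tert+ no RT libraries. In Tert- RT libraries it was at 23.6, 23.9, 9.52 and 3.45 CPM, against 11.6, 11.9 and 9.76 CPM in Tert- no RT libraries. The Tert+ ranges were apart, while the Tert- RT libraries lay on both sides of the Tert- libraries without RT. Ifit1 rose over both populations by a log2 fold change of 1.11 ± 0.34 (SE, edgeR adjusted p = 0.0442), and it stayed past the threshold in 2 of the 14 fits without 1 library, those without Tert- RT 3 and without Tert- RT 4 (adjusted p 0.00511 to 0.102 over the 14).

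Isg20, an exonuclease that degrades RNA, was at 68.9, 57.7, 49.3 and 43.3 CPM in Tert+ RT libraries, against 15.8, 38.7 and 21.3 CPM in Tert+ no RT libraries. It was at 38.1, 35.9, 50.4 and 31.6 CPM in Tert- RT libraries, against 21.5, 35.7 and 16.7 CPM in Tert- no RT libraries. The Tert+ ranges were apart and the Tert- ranges overlapped, with a log2 fold change of 0.89 ± 0.23 over both (SE, edgeR adjusted p = 0.0201). The call was lost without Tert+ no RT 3 and without Tert- no RT 3, where the highest adjusted p was 0.0600.

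Bst2 (tetherin), which holds budding virus particles on the cell surface, had the highest level per kilobase of the effectors, 44.4 CPM per kilobase over the 14 libraries. It was at 53.2, 41.5, 39.4 and 56.7 CPM in Tert+ RT libraries, against 23.1, 55.5 and 28.4 CPM in Tert+ no RT libraries. Its levels in Tert- RT libraries were 52.6, 40.5, 40.1 and 20.4 CPM, against 46.5, 30.8 and 32.6 CPM in Tert- no RT libraries. The ranges overlapped in both populations, and the log2 fold change of 0.24 ± 0.23 did not pass the test (SE, edgeR adjusted p = 0.542). The other 7 effectors (Ifit2, Ifit3, Ifit3b, Rsad2, Cmpk2, Eif2ak2 and Samd9l) had log2 fold changes between -0.03 for Cmpk2 and 1.25 for Ifit3b and did not pass the test. Rsad2, or viperin, an enzyme that makes a chain-terminating nucleotide, was at 5.58 to 13.6 CPM in Tert+ RT libraries and 0.244 to 4.24 CPM in Tert+ no RT libraries, ranges that did not overlap. Samd9l, a translation repressor, was at 111 to 142 CPM in Tert- RT libraries and 55.4 to 93.4 CPM in Tert- no RT libraries, also without overlap. Ifit3 and Ifit3b are near-identical neighbours on chromosome 19, and counts may be split between them.

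Of the 5 genes of the oligoadenylate synthetase family, whose active members make the oligoadenylates that switch on RNase L, 2 rose. Oas2 was at 13.8, 9.05, 4.23 and 7.87 CPM in Tert+ RT libraries, against 0, 1.33 and 3.87 CPM in Tert+ no RT libraries. Oas2 in Tert- RT libraries was at 30.5, 28.9, 34.4 and 16.3 CPM, against 6.26, 2.53 and 1.68 CPM in Tert- no RT libraries. The ranges with and without RT were apart in both populations, and the Tert- RT libraries also lay above all Tert+ RT libraries. Over both populations Oas2 rose by a log2 fold change of 2.63 ± 0.58 (SE, edgeR adjusted p = 0.00888). Oas2 shares 1273 bases with Gm43068 on the opposite strand, and whether counting used the strand is not given in the sources used here. Larger overlaps on the same strand were present for Rtp4, which shares 39791 bases with Gm45338, Herc6, which shares 45031 with Gm45193, and Parp14, which shares 1773 with AC129574.2. On the opposite strand, Usp18 shares 15715 bases with Gm44148, Parp9 5854 with Gm15564 and Dhx58 2637 with Dhx58os. Irf9 shares 123 bases with Rnf31 on the same strand. Shared bases, here and below, are counted between gene starts and ends and include introns, and the overlap of exons was not measured. Rtp4, for example, has a deposited gene length of 2131 bases. Counts of all these genes may be split or shared.

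Oasl1, which in mouse represses translation of Irf7 RNA, had the highest level per kilobase of this family (16.4 CPM per kilobase). It was at 96.6, 46.4, 66.0 and 25.1 CPM in Tert+ RT libraries, against 11.8, 40.1 and 36.2 CPM in Tert+ no RT libraries. It was at 64.0, 47.0, 59.2 and 33.4 CPM in Tert- RT libraries, against 15.0, 29.5 and 27.2 CPM in Tert- no RT libraries. The Tert- ranges were apart and the Tert+ ranges overlapped, with a log2 fold change of 1.04 ± 0.32 over both (SE, edgeR adjusted p = 0.0433). The call held in 2 of the 14 fits without 1 library, those without Tert+ RT 4 and without Tert- RT 4 (adjusted p 0.0173 to 0.0779). Oas1a, Oas3 and Oasl2 had log2 fold changes of 0.37, 0.91 and 0.73 and did not pass the test. Oasl2 was at 28.9 to 65.0 CPM in Tert+ RT libraries and 10.9 to 24.8 CPM in Tert+ no RT libraries, without overlap.

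Among the 5 nucleic acid sensors 1 rose, Zbp1, a sensor of Z-form nucleic acid that can start necroptosis. Zbp1 was at 62.4, 47.5, 76.3 and 65.0 CPM in Tert+ RT libraries, against 31.3, 29.3 and 30.8 CPM in Tert+ no RT libraries. It was at 87.4, 46.4, 52.1 and 44.4 CPM in Tert- RT libraries, against 41.2, 25.6 and 18.9 CPM in Tert- no RT libraries. Each of the 8 libraries after RT lay above each of the 6 without RT, a pattern that Xaf1 shared and that 1.82% of all genes tested showed, with 1.33% the other way. Zbp1 rose over both by a log2 fold change of 1.03 ± 0.20 (SE, edgeR adjusted p = 0.00523).

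Ddx58, which encodes the RNA sensor RIG-I, had the highest level per kilobase of the sensors (17.0 CPM per kilobase). It was at 163, 131, 151 and 101 CPM in Tert+ RT libraries, against 111, 123 and 95.9 CPM in Tert+ no RT libraries. It was at 119, 138, 150 and 110 CPM in Tert- RT libraries, against 66.9, 108 and 107 CPM in Tert- no RT libraries. The Tert- ranges were just apart and the Tert+ ranges overlapped, and the log2 fold change of 0.39 ± 0.14 did not pass the test (SE, edgeR adjusted p = 0.0816). Ifih1, which encodes the RNA sensor MDA5, had log2 fold changes of 0.59 in Tert+ and -0.51 in Tert-. Dhx58 and Ifi204, the genes of LGP2 and of a DNA-binding protein of the IFI200 family, had log2 fold changes of 0.49 and 0.18 over both populations and did not pass the test either. Ifi204 was at 0.428 to 13.4 CPM in Tert+ RT libraries and 4.49 to 5.54 CPM in Tert+ no RT libraries, and its libraries after RT lay on both sides of those without.

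Of the 3 transcription factors, 2 rose. Irf7, which drives transcription of interferon genes and is itself induced by interferon, was at 227, 142, 164 and 79.8 CPM in Tert+ RT libraries, against 50.2, 99.5 and 55.9 CPM in Tert+ no RT libraries. Irf7 in Tert- RT libraries was at 179, 158, 131 and 88.2 CPM, against 64.2, 91.9 and 53.4 CPM in Tert- no RT libraries. Replicate 4 after RT lay inside the range without RT in both populations, and the other libraries after RT lay above it. Irf7 rose over both by a log2 fold change of 1.07 ± 0.24 (SE, edgeR adjusted p = 0.0101).

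Irf9, the DNA-binding subunit of ISGF3, had the highest level per kilobase of the 3 (30.0 CPM per kilobase). It was at 242, 146, 172 and 164 CPM in Tert+ RT libraries, against 121, 156 and 129 CPM in Tert+ no RT libraries. It was at 182, 194, 233 and 146 CPM in Tert- RT libraries, against 124, 131 and 124 CPM in Tert- no RT libraries. The Tert- ranges were apart and the Tert+ ranges overlapped, with a log2 fold change of 0.50 ± 0.13 over both (SE, edgeR adjusted p = 0.0214), a call lost without Tert+ no RT 3 and without Tert- no RT 3 (highest adjusted p 0.0592). Stat2, which encodes a subunit of ISGF3, averaged 90.2 ± 24.2 CPM in Tert+ RT libraries and 98.8 ± 47.8 CPM in Tert+ no RT libraries (SD, n = 4 and 3). In Tert- it averaged 113 ± 14.4 CPM after RT and 107 ± 43.4 CPM without RT (SD, n = 4 and 3), with a log2 fold change of -0.02 over both populations.

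Of the 3 genes of ISG15 conjugation, a ubiquitin-like protein tag, 0 passed the test. At an unadjusted p under 0.05 (edgeR), 1 was higher and 0 lower, against 13.7% and 15.1% of all genes tested. Usp18, which removes ISG15 and also dampens signalling at IFNAR2, had the smallest p and the highest level per kilobase of the 3. It was at 110, 63.7, 47.2 and 40.1 CPM in Tert+ RT libraries, against 29.9, 54.9 and 25.9 CPM in Tert+ no RT libraries. It was at 67.5, 70.4, 32.7 and 30.8 CPM in Tert- RT libraries, against 29.9, 47.5 and 27.7 CPM in Tert- no RT libraries. The ranges overlapped in both populations, and the log2 fold change was 0.67 ± 0.28 (SE, edgeR adjusted p = 0.131). Isg15 itself averaged 5.13 ± 2.73 CPM in Tert+ RT libraries and 5.67 ± 2.35 CPM in Tert+ no RT libraries (SD, n = 4 and 3). In Tert- libraries Isg15 averaged 5.88 ± 3.26 CPM after RT and 6.22 ± 2.01 CPM without RT (SD, n = 4 and 3), so its mean was lower after RT in both populations by less than the spread. Herc6, the ligase that attaches ISG15 in mouse, had the lowest level per kilobase of all 37 genes (1.24 CPM per kilobase) and a log2 fold change of 0.39 over both populations.

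Among the 3 genes of ADP-ribosylation, Parp14, a mono-ADP-ribosyltransferase, rose. Parp14 was at 59.1, 43.5, 90.5 and 62.7 CPM in Tert+ RT libraries, against 35.5, 42.5 and 28.6 CPM in Tert+ no RT libraries. It was at 66.9, 76.2, 92.6 and 41.8 CPM in Tert- RT libraries, against 52.4, 41.0 and 46.3 CPM in Tert- no RT libraries. The Tert+ ranges were just apart and Tert- RT 4 lay within the Tert- range without RT. Parp14 rose over both by a log2 fold change of 0.71 ± 0.19 (SE, edgeR adjusted p = 0.0260), and the call was lost without each of Tert+ no RT 3, Tert- no RT 2, Tert- no RT 3 and Tert- RT 3 (highest adjusted p 0.0766).

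Parp9, which works as a complex with the ubiquitin ligase DTX3L, was at 114, 75.0, 82.1 and 55.8 CPM in Tert+ RT libraries, against 51.6, 65.9 and 60.0 CPM in Tert+ no RT libraries. Parp9 in Tert- RT libraries was at 112, 68.6, 76.3 and 53.1 CPM, against 65.7, 76.8 and 61.9 CPM in Tert- no RT libraries. The ranges overlapped in both populations, and the log2 fold changes of Parp9 and Dtx3l over both, 0.33 and 0.13, did not pass the test. Parp9 and Dtx3l share 682 bases on opposite strands and lie beside Parp14 on chromosome 16, so reads in the shared bases may count for either.

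Of the 6 remaining genes, Xaf1, Trim30a and Rtp4 rose. Xaf1, an antagonist of the caspase inhibitor XIAP, had the smallest p of the 37 genes. It was at 89.6, 65.8, 73.1 and 70.7 CPM in Tert+ RT libraries, against 24.9, 40.5 and 25.2 CPM in Tert+ no RT libraries. It was at 59.5, 52.8, 60.0 and 45.1 CPM in Tert- RT libraries, against 36.9, 34.1 and 23.7 CPM in Tert- no RT libraries. Each library after RT lay above each library without RT, and the log2 fold change over both was 1.04 ± 0.16 (SE, edgeR adjusted p = 0.00131). Xaf1 is the gene whose promoter window, printed above, held no ISRE match.

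Trim30a, a TRIM family protein, was at 188, 200, 154 and 135 CPM in Tert+ RT libraries, against 63.3, 106 and 83.4 CPM in Tert+ no RT libraries. It was at 112, 124, 129 and 106 CPM in Tert- RT libraries, against 71.6, 94.9 and 59.6 CPM in Tert- no RT libraries. The ranges were apart in both populations, and the Tert+ RT libraries lay above all Tert- RT libraries. The log2 fold change over both was 0.82 ± 0.14 (SE, edgeR adjusted p = 0.00264). Trim30a belongs to a family of close copies, and counts may be shared with them.

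Rtp4, a receptor transporter protein, was at 93.2, 45.3, 62.0 and 24.5 CPM in Tert+ RT libraries, against 19.3, 34.6 and 24.1 CPM in Tert+ no RT libraries. In Tert- RT libraries Rtp4 was at 61.7, 52.2, 50.8 and 26.6 CPM, against 22.5, 35.0 and 24.5 CPM in Tert- no RT libraries. Replicate 4 after RT lay within the range without RT in both populations. The log2 fold change was 0.96 ± 0.28 (SE, edgeR adjusted p = 0.0330), and the call held in 5 of the 14 fits without 1 library, those without Tert+ no RT 2, Tert- no RT 2, Tert+ RT 2, Tert+ RT 4 and Tert- RT 4 (adjusted p 0.00933 to 0.0814).

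Ifi27, which encodes a small mitochondrial membrane protein, had the highest level per kilobase of all 37 genes (78.6 CPM per kilobase) and, with Isg15, a negative log2 fold change in both populations. It was at 127, 93.1, 110 and 105 CPM in Tert+ RT libraries, against 202, 77.0 and 94.9 CPM in Tert+ no RT libraries. It was at 134, 130, 83.7 and 103 CPM in Tert- RT libraries, against 106, 121 and 129 CPM in Tert- no RT libraries. The ranges overlapped in both populations. Ifi44 had a log2 fold change of 1.11 ± 0.37 over both that missed the threshold (SE, edgeR adjusted p = 0.0575), and Ifi35, a leucine zipper protein, had -0.02.

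**Figure D3:**
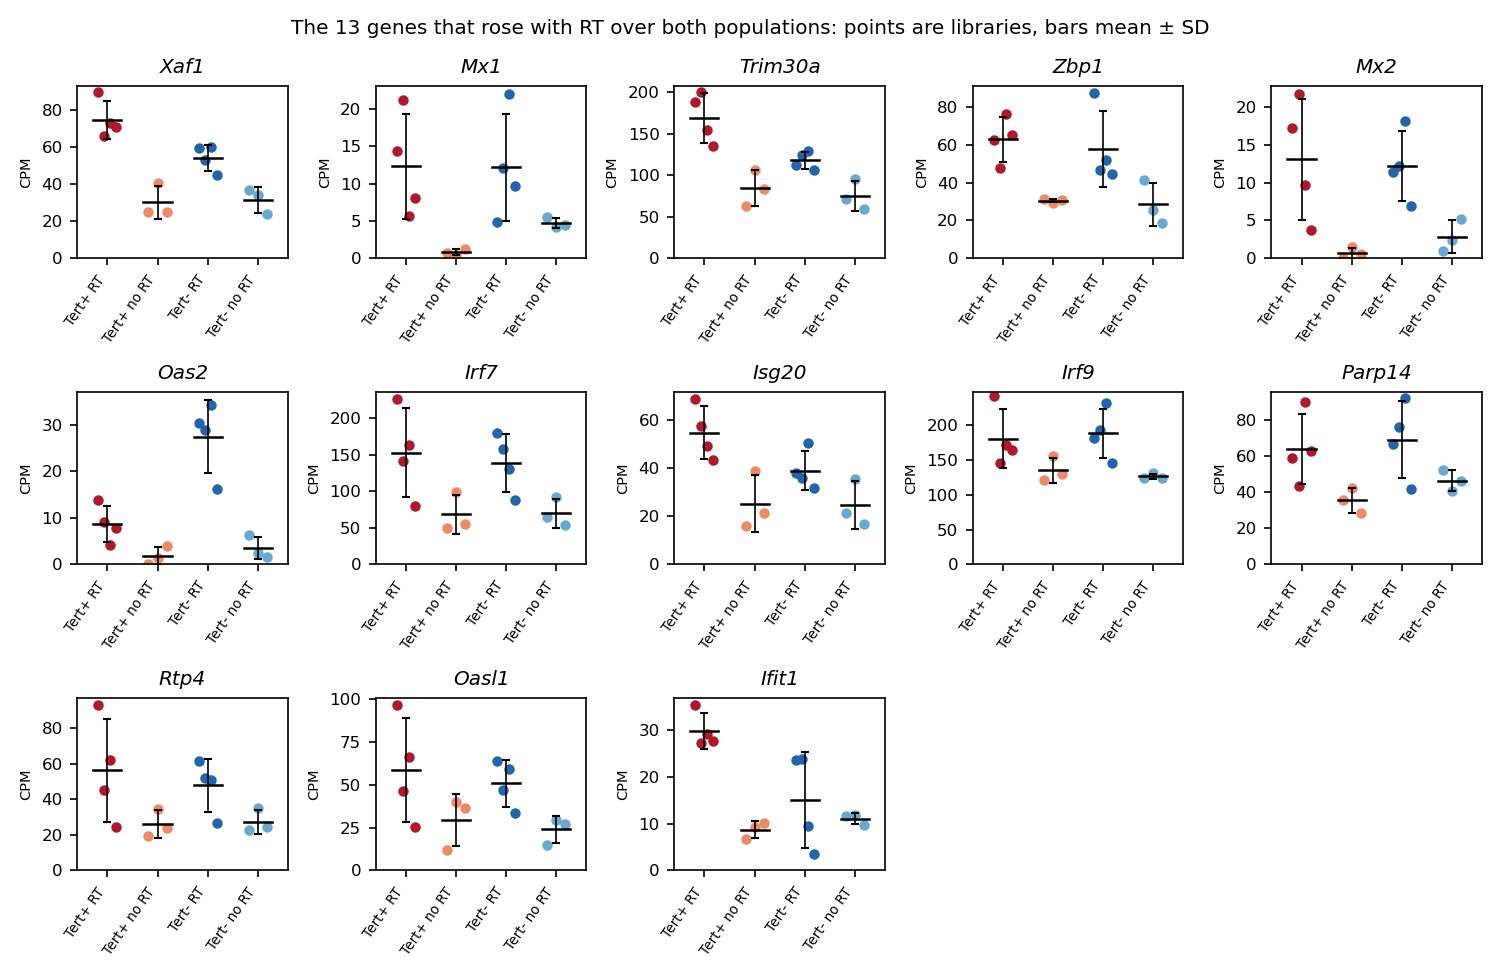
CPM of the 13 genes that rose after RT over both populations, with a panel per gene and a point per library, and bars for the mean ± SD of each group (n = 4 after RT and n = 3 without). The points of Xaf1 and Zbp1 after RT all lie above those without RT, and Oas2 is highest in Tert- RT.

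Within Tert+ cells, 4 of the 37 genes rose after RT and 0 fell, against 1.11% and 0.873% of all genes tested (edgeR quasi-likelihood test, Benjamini-Hochberg adjusted). They were Mx1, with a log2 fold change of 3.88 ± 0.67 (SE, edgeR adjusted p = 0.0156), Xaf1, with 1.31 ± 0.23 (adjusted p = 0.0157), Trim30a, with 1.00 ± 0.20 (adjusted p = 0.0269), and Mx2, with 4.14 ± 0.93 (adjusted p = 0.0372). The log2 fold change was positive for 33 of the 37 genes, with a median of 0.85, and 17 had an unadjusted p under 0.05 with a higher level, against 8.68% of all genes tested. Of the 37 genes, 11 had all Tert+ RT libraries above all Tert+ no RT libraries and 0 had them below, against 7.28% and 8.25% of all genes tested. The count of 4 was sensitive to the libraries: 0 of the 4 stayed past the threshold in each fit without 1 library, and the count was 0 without Tert+ no RT 3, 1 without Tert+ no RT 2 and 2 without Tert+ RT 2. It was 1 and the median 0.40 without both Tert+ RT 1 and Tert+ no RT 1, and it was 11 with DESeq2, which called 1173 of all genes in this comparison where edgeR called 315.

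Within Tert- cells, 0 of the 37 genes passed the test in either direction, against 0.817% of all genes tested that rose and 0.804% that fell (edgeR quasi-likelihood test, Benjamini-Hochberg adjusted). At an unadjusted p under 0.05, 12 were higher and 0 lower, against 8.6% and 10.2% of all genes tested, and DESeq2 called 8 higher and limma voom 1, Oas2. The log2 fold change was positive for 29 of the 37 genes, with a median of 0.57. The smallest adjusted p was 0.0736, for Oas2, with a log2 fold change of 2.96 ± 0.82 (SE, edgeR). Of the 37 genes, 9 had all Tert- RT libraries above all Tert- no RT libraries (Mx2, Samd9l, Oas2, Oasl1, Ddx58, Zbp1, Irf9, Xaf1 and Trim30a), and 0 had them below, against 9.7% and 9.22% of all genes tested.

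The difference between the 2 RT effects was tested directly, and 0 of the 37 genes passed, as did 0% of all genes tested in either direction (edgeR quasi-likelihood test, Benjamini-Hochberg adjusted), with 0 also by DESeq2 and limma voom. The RT effect was larger in Tert+ for 27 of the 37 genes, with a median difference of 0.27 on the log2 scale. That median was -0.02 without both Tert+ RT 1 and Tert+ no RT 1. At an unadjusted p under 0.05 there was 1 gene, Mx1, with a difference of 2.52 ± 0.82 (SE), against 2.06% of all genes tested on that side and 1.57% on the other. Xaf1 and Ifit1 had differences of 0.53 and 1.33 in the same direction, Zbp1 and Irf7 of 0.04 and 0.17, and Oas2 of -0.67.

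**Figure D4:**
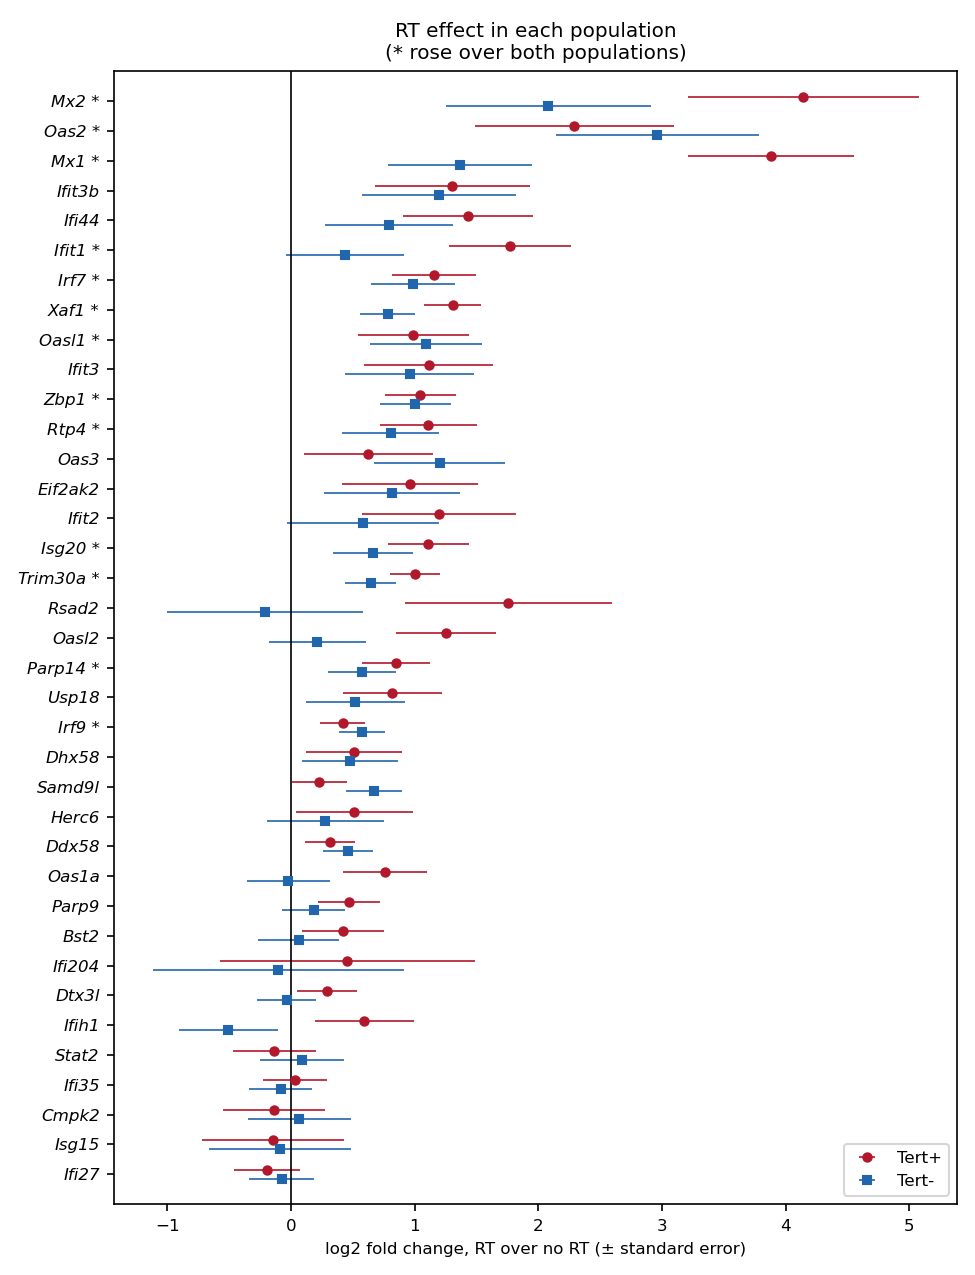
Log2 fold change of RT over no RT with its standard error for each of the 37 genes, in Tert+ (circles) and Tert- (squares). The 2 symbols lie far apart for Mx1 and Mx2 (3.88 and 4.14 in Tert+, 1.37 and 2.08 in Tert-) and close for Zbp1 and Irf7.

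Tert+ and Tert- cells were also compared at each radiation state. Without RT, 0 of the 37 genes passed the test, against 0% of all genes tested that were higher in Tert+ and 0.0377% that were lower (edgeR quasi-likelihood test, Benjamini-Hochberg adjusted). DESeq2 called 1 lower, Mx1, and limma voom 0. The median log2 fold change was -0.07, and 15 of the 37 were positive. At an unadjusted p under 0.05, 2 were lower in Tert+, Mx1 and Mx2, and 0 higher, against 3.06% and 1.44% of all genes tested. Mx1 averaged 0.822 ± 0.431 CPM in Tert+ no RT libraries and 4.71 ± 0.713 CPM in Tert- no RT libraries (SD, n = 3 each), the only gene of the 37 with ranges apart, where 4.83% of all genes tested lay fully lower in Tert+ and 4.04% fully higher. Its log2 fold change was -2.50 ± 0.66 (SE, edgeR adjusted p = 0.462).

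After RT, 0 of the 37 genes passed the test between Tert+ and Tert-, against 0.00628% of all genes tested in each direction (edgeR quasi-likelihood test, Benjamini-Hochberg adjusted), with 0 also by DESeq2 and limma voom. At an unadjusted p under 0.05, 4 were higher in Tert+ (Ifit1, Ifih1, Xaf1 and Trim30a) and 1 lower (Oas2), against 3.59% and 3.8% of all genes tested. Trim30a averaged 169 ± 29.9 CPM in Tert+ RT libraries and 118 ± 10.5 CPM in Tert- RT libraries (SD, n = 4 each). Oas2 went the other way, at 8.73 ± 3.94 CPM in Tert+ RT libraries and 27.5 ± 7.82 CPM in Tert- RT libraries (SD, n = 4 each). The ranges of Ifit1, Xaf1 and Trim30a lay fully higher in Tert+ and that of Oas2 fully lower, where 2.43% and 2.46% of all genes tested did so. Mx1, far apart without RT, averaged 12.3 ± 6.97 CPM in Tert+ RT libraries and 12.1 ± 7.19 CPM in Tert- RT libraries (SD, n = 4 each).

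The rest of the pathway was read through lists of further genes for RT over both populations, with the shares of all genes tested given above. Of 21 interferon ligand genes in the table, 18 had no count in any library, which allows between 0.188 and 0.543 CPM per library, counting error only and without the scaling factor. Of the ligands with counts, Ifng, the type II interferon, had 145 over the 14 libraries, Ifnk had 29 and Ifnz had 1, and only Ifng was tested and did not pass. Of 10 receptor and kinase genes, 0 passed the test (edgeR). An unadjusted p under 0.05 was found for 2 of the 10, against 28.9% of all genes tested. Ifnar1 averaged 126 ± 38.2 CPM in Tert+ RT libraries and 114 ± 17.4 CPM in Tert+ no RT libraries (SD, n = 4 and 3). In Tert- libraries Ifnar1 averaged 128 ± 19.2 CPM after RT and 139 ± 38.8 CPM without (SD, n = 4 and 3). Ifnar2 had a log2 fold change of -0.23 (edgeR adjusted p = 0.448), and averaged 67.9 ± 28.7 CPM in Tert+ RT libraries and 75.2 ± 5.57 CPM in Tert+ no RT libraries (SD, n = 4 and 3).

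Of 16 genes that carry the signal of nucleic acid sensors towards interferon transcription, 1 rose and 3 fell after RT. Trim25, a ubiquitin ligase that acts on RIG-I, rose by a log2 fold change of 1.35 ± 0.26 (SE, edgeR adjusted p = 0.00438). Trim25 averaged 138 ± 62.0 CPM in Tert+ RT libraries and 58.0 ± 11.8 CPM in Tert+ no RT libraries, and 162 ± 30.8 CPM in Tert- RT libraries and 59.5 ± 30.9 CPM in Tert- no RT libraries (SD, n = 4 after RT and 3 without). The genes that fell were Tmem173, which encodes STING, with -0.64 ± 0.14 (SE, edgeR adjusted p = 0.00992), the transcription factor Irf5, with -0.53, and Unc93b1, which brings endosomal Toll-like receptors to their place, with -0.40. Of 14 tested genes that restrain interferon signalling, 0 rose and 1 fell, the phosphatase Ptpn6, with -0.44 ± 0.12 (SE, edgeR adjusted p = 0.0235), and that call was lost without each of Tert+ no RT 2, Tert+ no RT 3, Tert- no RT 2, Tert- no RT 3 and Tert- RT 2 (highest adjusted p 0.0762).

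Of a further 64 tested genes known to be induced by type I interferon, 8 rose and 6 fell, shares to be read against the 6.36% and 7% of all genes tested. The log2 fold change was positive for 41 of the 64, and at an unadjusted p under 0.05, 20 were higher and 8 lower, against 13.7% and 15.1% of all genes tested. Those with the smallest adjusted p rose: Sp140, a nuclear body protein, by 0.77 ± 0.09, Helz2, a helicase co-activator, by 0.90 ± 0.14, Ifi27l2a, a relative of Ifi27, by 0.85 ± 0.15, and Rnf213, a large ubiquitin ligase, by 0.94 ± 0.18 on the log2 scale (SE, edgeR adjusted p 0.000226 to 0.00462). Sp140 and Helz2 also passed the test within each population, where leaving out 1 library gave adjusted p up to 0.0805 for Sp140 and 0.161 for Helz2. Helz2 averaged 138 ± 22.1 CPM in Tert+ RT libraries and 76.9 ± 15.1 CPM in Tert+ no RT libraries (SD, n = 4 and 3). Helz2 averaged 166 ± 15.6 CPM in Tert- RT libraries and 86.2 ± 22.3 CPM in Tert- no RT libraries (SD, n = 4 and 3). The genes that fell were Cnp, Ifi205, Ifitm2, Ly6e, Parp12 and Ube2l6, and Ube2l6 encodes the enzyme that passes ISG15 to its ligase. The calls of Ly6a, Sp110, Ifi205, Ifitm2, Ly6e, Parp12 and Ube2l6 had the largest adjusted p of the 14, and each was lost without at least 1 library.

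Of 21 tested genes that respond more to interferon gamma, 4 rose and 1 fell. Cd274, which encodes the checkpoint ligand PD-L1, rose by 1.19 ± 0.17 on the log2 scale (SE, edgeR adjusted p = 0.00106) and passed within each population, where leaving out 1 library gave adjusted p up to 0.132. Cd274 averaged 242 ± 27.1 CPM in Tert+ RT libraries and 107 ± 36.3 CPM in Tert+ no RT libraries (SD, n = 4 and 3), and 266 ± 40.7 CPM in Tert- RT libraries and 115 ± 36.4 CPM in Tert- no RT libraries (SD, n = 4 and 3). The GTPase genes Tgtp2 and Gbp4 rose by 1.05 and 0.63, and Irf1 rose by 0.49, a call that held in 2 of the 14 fits without 1 library. Irf8, a transcription factor of B cells and dendritic cells, fell by 0.67 on the log2 scale.

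Marker genes of immune cells moved with RT in the same libraries, and their part in the result on the 37 genes was not tested. Counts of markers that fell or rose are for RT over both populations, where 7% of all genes tested fell and 6.36% rose. The 8 B cell markers, of which 0 passed the test, summed to 9986 to 11639 CPM in Tert+ RT libraries and 8875 to 13150 CPM in Tert+ no RT libraries, and to 9353 to 10199 CPM in Tert- RT libraries and 8069 to 13282 CPM in Tert- no RT libraries. The 7 macrophage markers, of which 2 fell, summed to 94.2 to 192 CPM in Tert+ RT libraries and 118 to 283 CPM in Tert+ no RT libraries, and to 252 to 1166 CPM in Tert- RT libraries and 1528 to 1864 CPM in Tert- no RT libraries. Macrophage marker sums were thus lower in Tert+ than in Tert- and lower after RT within Tert-, while the interferon response genes were higher after RT. The log2 fold change of RT was negative for 7 of the 7 macrophage markers in Tert-. In Tert+ the list was split, with 3 positive and 4 negative. At an unadjusted p under 0.05 (edgeR), 2 were higher and 2 lower in Tert+, against 8.68% and 9.29% of all genes tested. Of the 7 monocyte and neutrophil markers 3 fell and 1 rose, and their sums were 592 to 1061 CPM in Tert+ RT, 630 to 1848 CPM in Tert+ no RT, 316 to 697 CPM in Tert- RT and 578 to 1498 CPM in Tert- no RT. The 6 markers of plasmacytoid dendritic cells, the immune cells that secrete the most type I interferon, had 4 that fell, and summed to 1757 to 2640 CPM in Tert+ RT, 2011 to 3290 CPM in Tert+ no RT, 1692 to 1952 CPM in Tert- RT and 1999 to 2850 CPM in Tert- no RT. These markers include Irf8, counted above among the interferon gamma genes and named as a factor of B cells and dendritic cells. Their sum is therefore not specific to plasmacytoid dendritic cells. Siglech, a defining marker of plasmacytoid dendritic cells, averaged 57.5 ± 37.6 CPM in Tert+ RT libraries and 100 ± 62.5 CPM in Tert+ no RT libraries (SD, n = 4 and 3). In Tert- libraries Siglech averaged 14.7 ± 10.7 CPM after RT and 86.8 ± 31.6 CPM without RT (SD, n = 4 and 3).

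The remaining marker lists were those of T cells, NK cells, conventional dendritic cells and epithelial, acinar, endothelial and fibroblast cells. Of 7 T cell markers 1 fell, of 5 NK cell markers 2 fell and of 6 conventional dendritic cell markers 2 fell, against 7% of all genes tested. The call of 1 of the 7 T cell markers is too few to read alone as a result on T cells. The log2 fold change of RT was negative for 7 of the 7 in Tert+, in Tert- and over both populations. Its median over both was -1.16. At an unadjusted p under 0.05 (edgeR), 3 of the 7 were lower over both, against 15.1% of all genes tested. Over both populations it was negative for 5 of the 5 NK cell markers and 4 of the 6 conventional dendritic cell markers. The NK cell sums were 7.76 to 40.8 CPM in Tert+ RT libraries and 45.9 to 96.9 CPM in Tert+ no RT libraries, ranges that did not overlap, and 14.4 to 49.5 CPM in Tert- RT libraries and 41.7 to 64.1 CPM in Tert- no RT libraries. In Tert- the NK cell ranges overlapped, while the macrophage, plasmacytoid dendritic, T cell and conventional dendritic cell sums were all lower after RT without overlap. In Tert+ the conventional dendritic cell sums did not overlap either. Taken as single genes, 8.25% of all genes tested lay fully lower after RT in Tert+ and 9.22% in Tert-. The T cell sums were 97.3 to 367 CPM in Tert+ RT, 219 to 588 CPM in Tert+ no RT, 83.5 to 171 CPM in Tert- RT and 183 to 548 CPM in Tert- no RT. The conventional dendritic cell sums were 21.4 to 40.6 CPM in Tert+ RT, 64.9 to 84.8 CPM in Tert+ no RT, 14.7 to 24.3 CPM in Tert- RT and 28.3 to 143 CPM in Tert- no RT. Of 7 epithelial, 9 acinar, 3 endothelial and 4 fibroblast markers tested, 0 passed (edgeR). An unadjusted p under 0.05 was found for 1, 2, 0 and 1 of them, against 28.9% of all genes tested. Over the 14 libraries the fibroblast sums were between 0 and 89.4 CPM and the endothelial sums between 164 and 284 CPM.

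**Figure D5:**
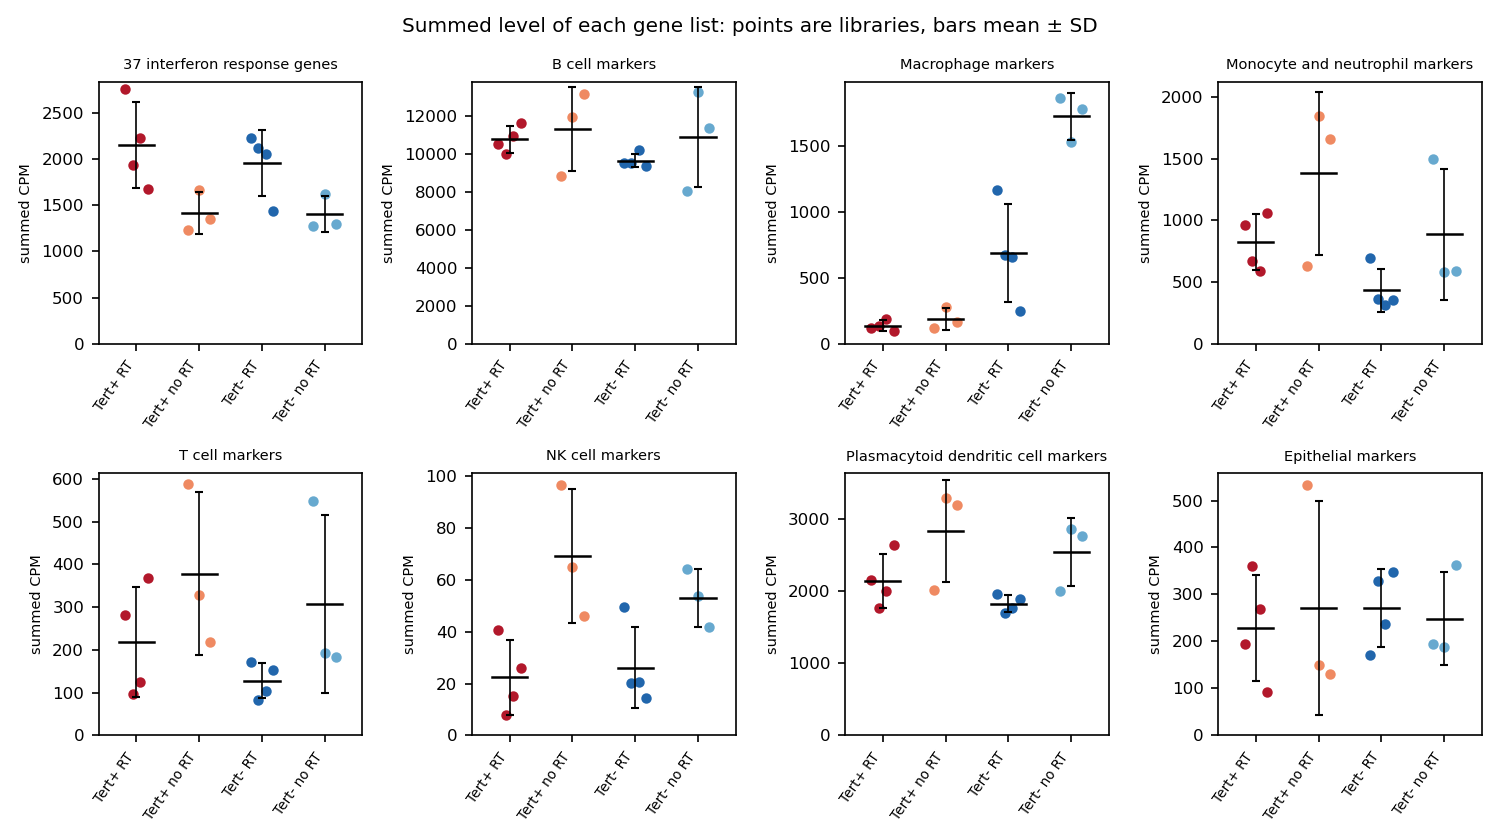
Summed CPM of the 37 interferon response genes and of 7 marker lists, with a point per library and bars for the mean ± SD (n = 4 after RT and n = 3 without). The interferon response sum is higher after RT in both populations apart from replicate 4 of Tert- RT, while the NK cell sum is lower in Tert+ RT than in Tert+ no RT and the macrophage sum is lower in Tert- RT than in Tert- no RT.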

How the data were processed

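RNA from 14 sorted-cell libraries, each made from 1 ng of RNA, was measured by sequencing. The authors deposited raw read counts per gene with gene annotation in one table, per the file headers; HISAT2 and the build mm10 are named in the submitters' processing notes, and the counting tool, annotation release and use of strand are not given in the sources used here. The 37 genes and all lists were chosen with earlier results of these data known. Counts were filtered with filterByExpr on the 4 groups (15915 of 54532 genes tested, 37 of the 37 included), scaled by TMM and fitted with 1 term per group over all 14 libraries (edgeR 4.0.16 quasi-likelihood F test, limma 3.58.1, R 4.3.3). P-values were adjusted by Benjamini-Hochberg over all genes tested, with a threshold of 0.05, in 6 comparisons. CPM are counts scaled to the TMM-adjusted library size, and levels between genes are compared per kilobase of the deposited gene length. Values in every library are given for genes past the threshold and, in each role group, for the gene with the smallest p for RT over both populations and the gene with the highest level per kilobase. Gene lists are named by up to 4 genes past the threshold with the smallest p, and 1 gene of the pathway is not reported here. Alternatives were DESeq2 1.42.0, limma voom, DESeq2 size factors, no filter, a replicate block and leaving out libraries. The step was tested on simulated data. No 2 libraries held identical values (0 pairs).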

Additional observations from a re-analysis of the deposited data

Results flagged for a closer look

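Of 76 sets of 4 libraries (37 genes and the summed level in each group after RT) examined for a library far from the others, 2 were flagged by Dixon's criterion, which chance alone flags in about 1 in 20 sets. Ifit2 was at 46.7 CPM in Tert- RT 2, where the other Tert- RT libraries lay between 10.96 and 16.9 CPM. Rsad2 was at 9.79 CPM in Tert- RT 3, where the other Tert- RT libraries lay between 2.16 and 3.45 CPM. Both genes are antiviral effectors that did not pass the test for RT in any comparison.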

How the results depend on the processing

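The log2 fold changes followed here were those of the 37 genes with an unadjusted p under 0.05 and of listed genes, without the markers, past the threshold. None of these reversed its sign under any alternative run. Choosing genes with a small p made that likely in advance, so it is no measure of stability. The number of the 37 genes that rose after RT over both populations was 13; it was 21 with a replicate block over the 4 groups and 8 without both Tert+ RT 1 and Tert+ no RT 1, a pair chosen after the data were seen. With DESeq2 size factors, no filter, DESeq2, limma voom and without Tert+ RT 3 and 4 together it was between 10 and 18. In Tert+ the number was 4, against 11 with DESeq2, 2 without Tert+ RT 3 and 4 together and 1 without both libraries numbered 1. In Tert- it was 0, against 8 with DESeq2, and 1 with the replicate block, with limma voom and without both libraries numbered 1. DESeq2 called 1 gene lower in Tert+ than in Tert- without RT, where the main value was 0. Leaving out 1 library at a time gave 7 to 16 over both populations, 0 to 5 in Tert+, 0 to 2 in Tert- and 0 in the other comparisons. The share of all genes called moved too: DESeq2 called 1173 genes in Tert+ and 1327 in Tert-, against 315 and 258, and leaving out 1 library gave 21 to 507 and 18 to 901. Over all fits that left out 1 library, counting each followed gene and comparison once per fit, 173 values moved below the threshold, 14 moved past it and 1101 stayed on their side. The median log2 fold change of the 37 genes in Tert+ was 0.85, against 1.201 without Tert+ RT 3 and 4 together and 0.40 without both libraries numbered 1. Without those libraries numbered 1, the medians of Tert+ against Tert- were 0.11 without RT and -0.07 after RT, against -0.07 and 0.13 with them. The causes were not tested, and fits without libraries have fewer degrees of freedom.

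Whether replicate numbers pair the libraries is undecided. The labels do not say so, and the correlations of deviations between libraries with the same number ran between -0.0802 and 0.119, with 0.106 and 0.119 for numbers 1 and 2 between the populations without RT. As a hint from the data, 7 of 14 libraries correlated best with their own number in the other population, each out of the 3 or 4 libraries of that population in the same RT state. Within each RT state, Tert+ and Tert- libraries with the same replicate number also carried consecutive library numbers. The replicate block is therefore an alternative only. Groups of 3 and 4 libraries and levels of a few CPM (Mx1, Mx2, Oas2, Rsad2, Isg15) limit what can be detected.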
